A study of Mus musculus with 8 samples.

Results

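The cytoplasmic factors that start and extend protein chains were followed as a gene family through the inhibition of MYC in mouse embryonic stem cells (ESCs) and its release. Members were all genes whose symbol starts with Eif or Eef and a digit, without the Eif2ak kinases and Eif4ebp1, that had a probe set with a single gene symbol on the array. This gave 53 of the 18193 genes measured, with 139 probe sets, and the probe set with the highest mean over the 8 arrays stood for each gene. The ESCs grew in serum-free 2i medium with leukaemia inhibitory factor, the MEK inhibitor PD0325901 at 1 μM and the GSK3 inhibitor CHIR99021 at 3 μM, which all groups shared. Released cells (Resc, 3 arrays) had 60 h of the MYC inhibitor 10058-F4 at 64 μM and then 48 h in medium without it. Inhibitor-treated cells (MYCi, 2 arrays) had 60 h of 10058-F4 at 64 μM, a compound that disrupts the pairing of MYC with MAX, and DMSO cells (3 arrays) had 60 h of its solvent. The labels used here give no ESC line, strain or genotype. The comparisons asked how the transcripts responded to the inhibitor and where they stood once it was withdrawn. Released cells were taken 48 h later than the cells of both other groups, and no solvent control of that time is in the series. In comparisons with released cells, withdrawal and the added time in culture therefore cannot be told apart.

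In initiation, eIF2 carries the initiator tRNA to the small ribosomal subunit, eIF3 binds that subunit and its partners, and the eIF4 factors bring in a capped mRNA and unwind it while the start codon is sought. The exchange factor eIF2B recharges eIF2 with GTP after each round, and in elongation eEF1A delivers aminoacyl-tRNAs, the eEF1B subunits recharge it, and eEF2 moves the ribosome along the mRNA. Some of these genes, Eif4e among them, are known targets of MYC, which binds DNA as a pair with MAX at the sequence CACGTG, called the E-box.

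Levels are log2 values after RMA, which corrects the background of each array, gives all arrays the same distribution of values and condenses each probe set to 1 value. A shift in RNA amount that most genes share is therefore not visible, and levels of different probe sets are not set against each other. The number of arrays limits the precision, and where replicates were not separate cultures, which the labels do not state, p-values measure only technical spread between these arrays. Over the 53 members the median SD between arrays was 0.044 in released, 0.052 in inhibitor-treated and 0.047 in DMSO cells. Of 8 markers of pluripotent cells 3 rose with the inhibitor, Zfp42 (0.69 ± 0.073, log2 change against DMSO ± moderated standard error), Klf4 (0.46 ± 0.076) and Esrrb (0.20 ± 0.059), 2 fell, Tdgf1 (-0.38 ± 0.062) and Dppa5a (-0.26 ± 0.060), and Pou5f1, Sox2 and Nanog were not called. The mean level of the 8 was 11.47 to 11.5 on released, 11.54 to 11.55 on inhibitor-treated and 11.44 to 11.47 on DMSO arrays. The mean of 10 fibroblast and feeder markers was 3.53 on released, 3.38 to 3.46 on inhibitor-treated and 3.47 to 3.52 on DMSO arrays. Of those 10 genes 0 rose and 1, Thy1, fell. Of 8 primitive endoderm markers 0 rose and 2, Sox7 and Foxa2, fell, and their mean was 3.65 to 3.7 on released, 3.57 to 3.6 on inhibitor-treated and 3.67 to 3.75 on DMSO arrays. Of 7 trophectoderm markers 3 (Eomes, Gata3 and Krt7) rose with the inhibitor and 0 fell, and their mean was 5.18 to 5.33 on released, 6.02 to 6.21 on inhibitor-treated and 5.42 to 5.5 on DMSO arrays. These calls used an adjusted p under 0.05 in limma, at which 19.2% of all genes rose with the inhibitor and 22.3% fell. Mean levels of Gata3 on DMSO arrays (2.52) and Sox7 on inhibitor-treated arrays (2.72) lay within the 2.15 to 2.95 of 3 bacterial control probe sets (TrpnX). The difference between the ends of the Gapdh control transcript, a measure of RNA integrity, was -0.133 to -0.117 on released, -0.216 and -0.148 on inhibitor-treated and -0.13 to -0.108 on DMSO arrays. For the Actb control transcript the groups overlapped. Its difference was 0.248 to 0.278 on released, 0.254 and 0.288 on inhibitor-treated and 0.251 to 0.269 on DMSO arrays. The part of these differences in the results that follow was not tested, and in bulk RNA fewer cells of a type and less RNA per cell cannot be told apart.

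After 60 h with the inhibitor, 23 of the 53 members were lower than in DMSO cells and 7 were higher. The largest fall was that of Eef1akmt1, a methyltransferase gene of eEF1A (-1.36 ± 0.070), and the largest rise that of Eif4g3, a scaffold gene of the cap-binding complex (1.45 ± 0.068). A member counted as changed at an adjusted p under 0.05 in limma, fitted over all 18193 genes with Benjamini-Hochberg adjustment. The 30 called members were 56.6% of the family, against 41.5% of all genes, with 43.4% of members and 22.3% of genes lower and 13.2% of members and 19.2% of genes higher. Dim genes are part of that background. Without genes under the 30th percentile of level, 46.2% of members and 30.6% of genes were lower. In that setting 17.3% of members and 27.4% of genes were higher. The median change was -0.088 for the members and -0.058 for all genes, and the median absolute change 0.229 for the members and 0.19 for all genes. Inhibitor-treated and DMSO arrays did not overlap for 43 of the members (81.1%, against 60.5% of all genes), among them all 30 that were called. Most falls were small, with a median of -0.36 among the 23, and of the members called in either direction only Eef1akmt1 and Eif4g3 changed at least 2-fold. The larger share of falls among the members was not present at a threshold of at least 1.5-fold, where 3 members were lower and 3 higher (5.66% each), against 6.22% and 8.26% of all genes. When each of the 8 arrays was left out in turn, 23 of the 30 calls held every time. Those of Eif2a, Eif2s2, Eif3h, Eif3m, Eif4a1, Eif4a2 and Eif6 ended without inhibitor-treated replicate 2 (adjusted p from 0.0796 to 0.277), and some of them without other arrays too. With each array centred on its median, which moves the median of all genes to -0.106, 25 members were lower and 6 higher (28.2% and 17.4% of all genes).

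**Figure D1:**
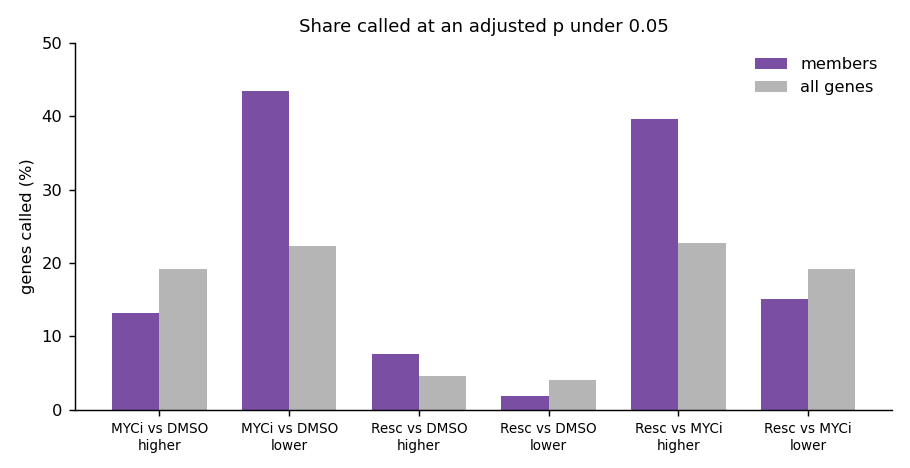
Share of the members (left bar of each pair) and of all 18193 genes (right bar) called higher or lower in each comparison at a limma adjusted p under 0.05, in percent. With the inhibitor 43.4% of members and 22.3% of genes were lower than with DMSO, and between released and inhibitor-treated arrays 39.6% of members and 22.7% of genes were higher.

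After release, 21 members were higher and 8 lower than in inhibitor-treated cells (39.6% and 15.1%, against 22.7% and 19.2% of all genes), which made 29 members called (54.7%, against 41.9% of all genes). The arrays of both groups did not overlap for 41 members (77.4%, against 61.9% of all genes). At 1.5-fold 5 were higher and 3 lower (9.43% and 5.66%, against 6.37% and 8.18% of all genes). Without genes under the 30th percentile of level, 40.4% of members were higher and 17.3% lower (31.4% and 27.4% of genes). When each array was left out in turn 23 of these 29 calls held every time, and those of Eef1e1, Eef2, Eif2s3x, Eif3i, Eif4a1 and Eif5 ended without at least 1 array (adjusted p from 0.0522 to 0.205). Against DMSO cells 4 members were higher and 1 lower (7.55% and 1.89%, against 4.66% and 4.01% of all genes), and arrays did not overlap for 24 (45.3%, against 28.6% of all genes). The median change of the members against DMSO was 0.02 after release, and their changes ran from -0.29 to 0.43. The 3 comparisons share arrays, so the values of each stand side by side. The 23 members that were lower with the inhibitor lay between -0.22 and 0.43 relative to DMSO after release, and the 7 that were higher lay between -0.29 and 0.23.

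**Figure D2:**
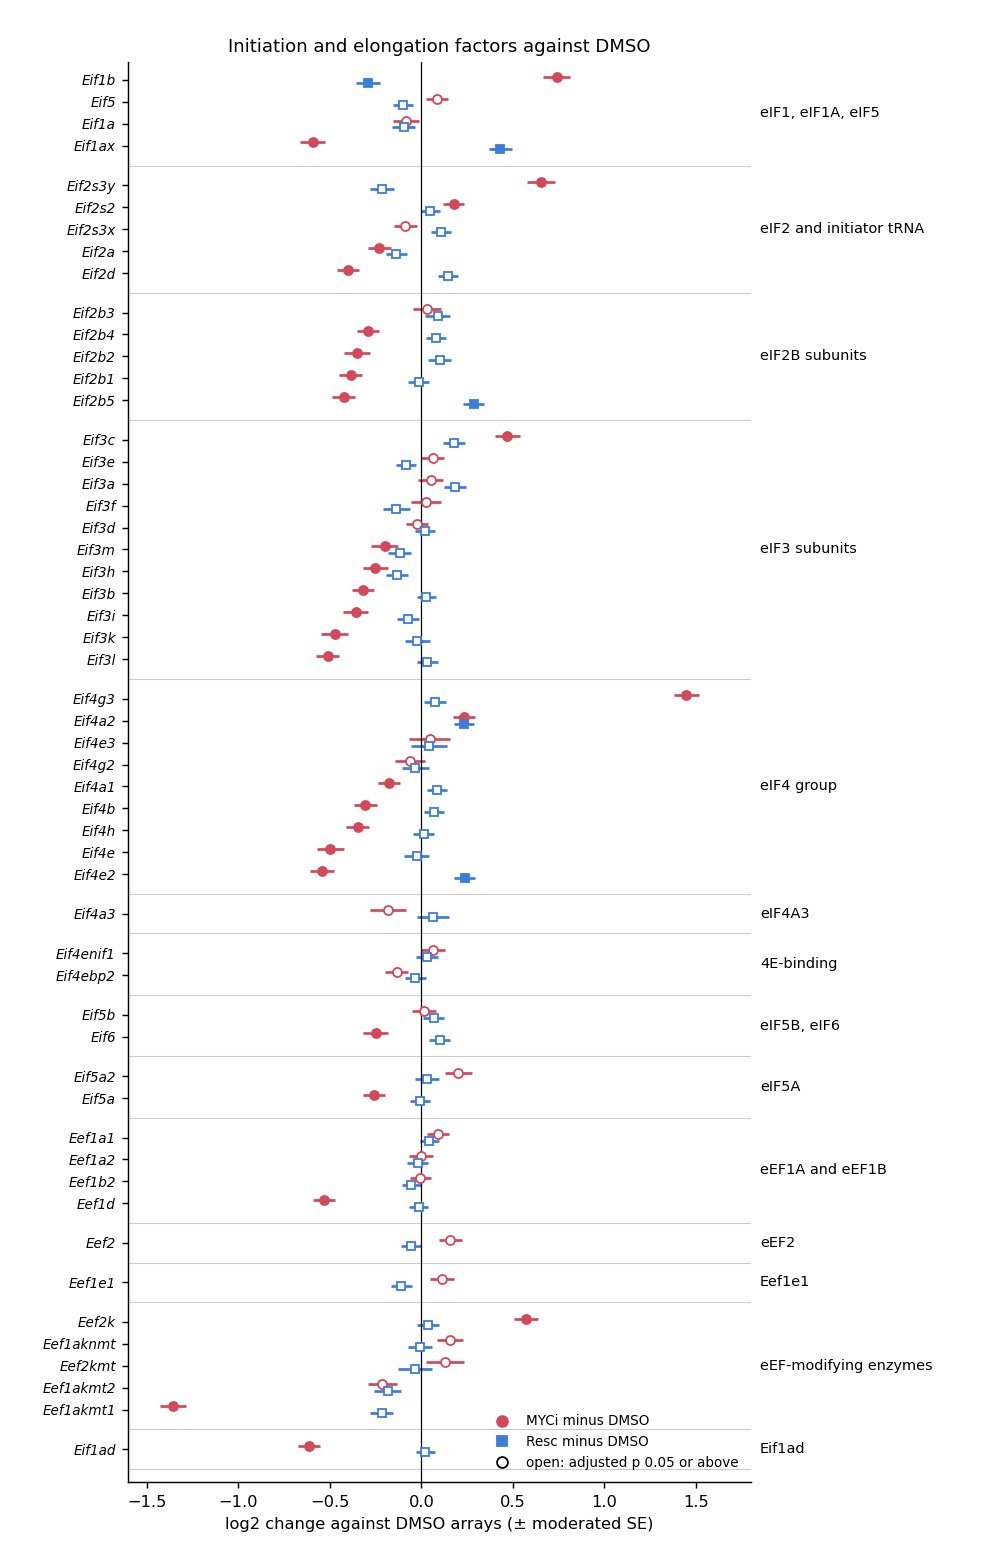
Log2 change of each of the 53 members against DMSO arrays, grouped by role, with the inhibitor (MYCi minus DMSO) and after release (Resc minus DMSO); bars are moderated standard errors and open symbols did not pass an adjusted p of 0.05. Changes with the inhibitor spread from -1.36 for Eef1akmt1 to 1.45 for Eif4g3, and those after release lie between -0.29 and 0.43.

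Promoters of 43 members were found in a RefSeq table of build GRCm38.p6, and the 250 bases before each listed start site were searched on both strands for CACGTG, which reads the same on either. Of these genes 11 (25.6%) had a match, against 8.7% of the 14368 array genes with a promoter in the table. Dim genes are part of that background too. A gene counted if any of its listed windows had a match, so genes with more start sites had more chances. Eif5a had a match in 3 of 6 windows, and those 185 and 74 bases before their start sites are the same E-box. A match was found in 5 of 18 members that fell with the inhibitor (27.8%), 2 of 7 that rose (28.6%) and 4 of 18 that were not called (22.2%). The genes with a match were Eif3k, Eif4a1, Eif4e, Eif4h and Eif5a among those that fell, Eif1b and Eef2k among those that rose, and Eef1aknmt, Eef2, Eif3f and Eif5a2 among those not called. The motif TGATGNAA, the composite site of C/EBP and ATF factors, was found on either strand in 2 of the 43 (4.7%, against 2.8% of array genes). A match describes the letters of a window and not a binding site. The windows of Eif4e, Eif3k, Eif4h, Eif1b and Eef2k are printed, with the E-box in capitals, because they show the motif in front of members that fell and of members that rose. They lie at chr3:138527018-138527267 on the plus strand for Eif4e, chr7:28981889-28982138 on the minus strand for Eif3k, chr5:134639410-134639659 on the minus strand for Eif4h, chr9:120492356-120492605 on the plus strand for Eif1b and chr7:120842581-120842830 on the plus strand for Eef2k, are written in the direction of the gene, and end at the base before the start site.
Eif4e: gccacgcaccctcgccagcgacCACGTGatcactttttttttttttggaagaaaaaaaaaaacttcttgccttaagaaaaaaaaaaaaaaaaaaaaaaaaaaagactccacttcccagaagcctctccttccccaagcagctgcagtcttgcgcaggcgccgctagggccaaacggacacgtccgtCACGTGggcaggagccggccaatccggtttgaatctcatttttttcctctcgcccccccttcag
Eif3k: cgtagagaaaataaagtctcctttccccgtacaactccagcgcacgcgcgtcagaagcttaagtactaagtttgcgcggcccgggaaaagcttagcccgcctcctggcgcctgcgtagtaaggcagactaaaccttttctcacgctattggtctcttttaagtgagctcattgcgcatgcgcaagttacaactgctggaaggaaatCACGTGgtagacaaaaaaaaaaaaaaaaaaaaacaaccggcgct
Eif4h: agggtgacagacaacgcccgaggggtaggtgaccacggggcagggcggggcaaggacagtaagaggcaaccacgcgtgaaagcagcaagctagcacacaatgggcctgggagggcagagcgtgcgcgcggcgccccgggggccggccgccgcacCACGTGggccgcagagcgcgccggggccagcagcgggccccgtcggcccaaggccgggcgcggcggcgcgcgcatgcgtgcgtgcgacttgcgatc
Eif1b: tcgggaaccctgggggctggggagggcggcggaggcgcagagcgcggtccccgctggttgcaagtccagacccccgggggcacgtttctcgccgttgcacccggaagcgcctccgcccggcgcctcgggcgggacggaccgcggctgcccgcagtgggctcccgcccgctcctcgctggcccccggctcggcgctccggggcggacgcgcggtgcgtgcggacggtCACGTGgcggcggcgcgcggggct
Eef2k: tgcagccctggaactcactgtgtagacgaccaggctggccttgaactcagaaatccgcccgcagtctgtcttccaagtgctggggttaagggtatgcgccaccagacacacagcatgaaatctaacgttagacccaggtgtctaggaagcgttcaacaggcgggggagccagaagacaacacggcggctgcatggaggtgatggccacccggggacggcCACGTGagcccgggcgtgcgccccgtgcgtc

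The window of Eif4e holds 2 E-boxes, which begin 228 and 64 bases before the start site. The E-box begins 44 bases before it in Eif3k, 96 in Eif4h, 24 in Eif1b and 31 in Eef2k. Eif4e has 2 listed start sites and Eef2k has 3, and in each of them only the window shown holds the motif.

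Among the factors that bind the cap and unwind the mRNA, 5 of 9 members fell with the inhibitor and 2 rose, in a comparison where 22.3% of all genes fell and 19.2% rose. These shares of all genes, 22.3% and 19.2%, are the background for the counts of each smaller group with the inhibitor, and no test was run over a group. Eif4e, the gene of the cap-binding protein, had levels of 10.15, 10.19 and 10.19 in released, 9.79 and 9.61 in inhibitor-treated and 10.17, 10.29 and 10.14 in DMSO cells. The inhibitor-treated arrays lay below all others. Eif4e fell 1.41-fold with the inhibitor (-0.50 ± 0.075, adjusted p = 0.000455), and after release it differed from DMSO by -0.02 ± 0.067 (adjusted p = 0.871). Eif4e2, the gene of a cap-binding homologue known to repress the mRNAs it holds, stood at 10.64, 10.77 and 10.73 in released, 9.97 and 9.89 in inhibitor-treated and 10.47, 10.50 and 10.45 in DMSO cells. Here the inhibitor-treated arrays were again the lowest, and every released array lay above every DMSO array. It fell 1.46-fold with the inhibitor (-0.54 ± 0.066, adjusted p = 9.96e-05), and all 5 of its probe sets fell. The difference between released and DMSO cells (0.24 ± 0.059, adjusted p = 0.037) lost its call without any 1 array except released replicate 1 (adjusted p from 0.0505 to 0.125). On the other probe sets of Eif4e2 this difference was 0.26, -0.07, -0.08 and 0.0003. Eif4e3, a further cap-binding homologue, had levels of 4.81, 4.71 and 4.96 in released, 4.95 and 4.70 in inhibitor-treated and 4.62, 4.88 and 4.85 in DMSO cells, with overlapping groups and no call (0.05 ± 0.11, adjusted p = 0.78).

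The scaffold gene Eif4g3 gave the largest rise of the family. Its levels were 7.62, 7.67 and 7.64 in released, 9.06 and 8.97 in inhibitor-treated and 7.48, 7.61 and 7.62 in DMSO cells. The inhibitor-treated arrays stood above all others, 2.73-fold over DMSO (adjusted p = 2.47e-07). Released cells were 2.59-fold lower than inhibitor-treated cells (-1.37 ± 0.068, adjusted p = 2.91e-07) and differed from DMSO by 0.07 ± 0.061. Of its 4 probe sets 2 rose, the second by 0.87 at a mean level of 3.63, and the others, at mean levels of 5.71 and 3.29, had no call. Eif4g2, which encodes a related protein without the eIF4E-binding site, had no call with the inhibitor on any of its 5 probe sets (-0.06 ± 0.083 for the one kept). The third scaffold gene, Eif4g1, was not analysed here.

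The helicase genes Eif4a1 and Eif4a2 were called in opposite directions. Eif4a1 had levels of 12.97, 13.02 and 12.97 in released, 12.76 and 12.68 in inhibitor-treated and 12.87, 12.93 and 12.89 in DMSO cells. Its inhibitor-treated arrays were the lowest, but the fall was small (-0.18 ± 0.061, adjusted p = 0.0416) and its call ended without any 1 of the 8 arrays (adjusted p from 0.0545 to 0.221). Eif4a2 stood at 12.42, 12.48 and 12.46 in released, 12.42 and 12.49 in inhibitor-treated and 12.20, 12.22 and 12.24 in DMSO cells. Both inhibitor-treated and released arrays lay above all DMSO arrays and overlapped with each other. Eif4a2 was higher with the inhibitor (0.23 ± 0.060, adjusted p = 0.0101, and 0.0796 without inhibitor-treated replicate 2). It was also higher after release (0.23 ± 0.053, adjusted p = 0.0263), a call that ended without any 1 of the 6 released and DMSO arrays (adjusted p from 0.057 to 0.0927). Eif4b and Eif4h, whose products stimulate the helicase, fell with the inhibitor (-0.31 ± 0.061 and -0.35 ± 0.063), and after release they differed from DMSO by 0.07 ± 0.055 and 0.01 ± 0.056. Eif4a3, the gene of the helicase of the exon junction complex, had a dim probe set with a mean level of 3.73 and no call (-0.18 ± 0.097, adjusted p = 0.168). The family's genes of eIF4E-binding proteins, Eif4ebp2 (-0.13 ± 0.063) and Eif4enif1 (0.07 ± 0.065), were not called, although 2 of the 5 probe sets of Eif4ebp2 fell, to changes of -0.40 and -0.39.

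**Figure D3:**
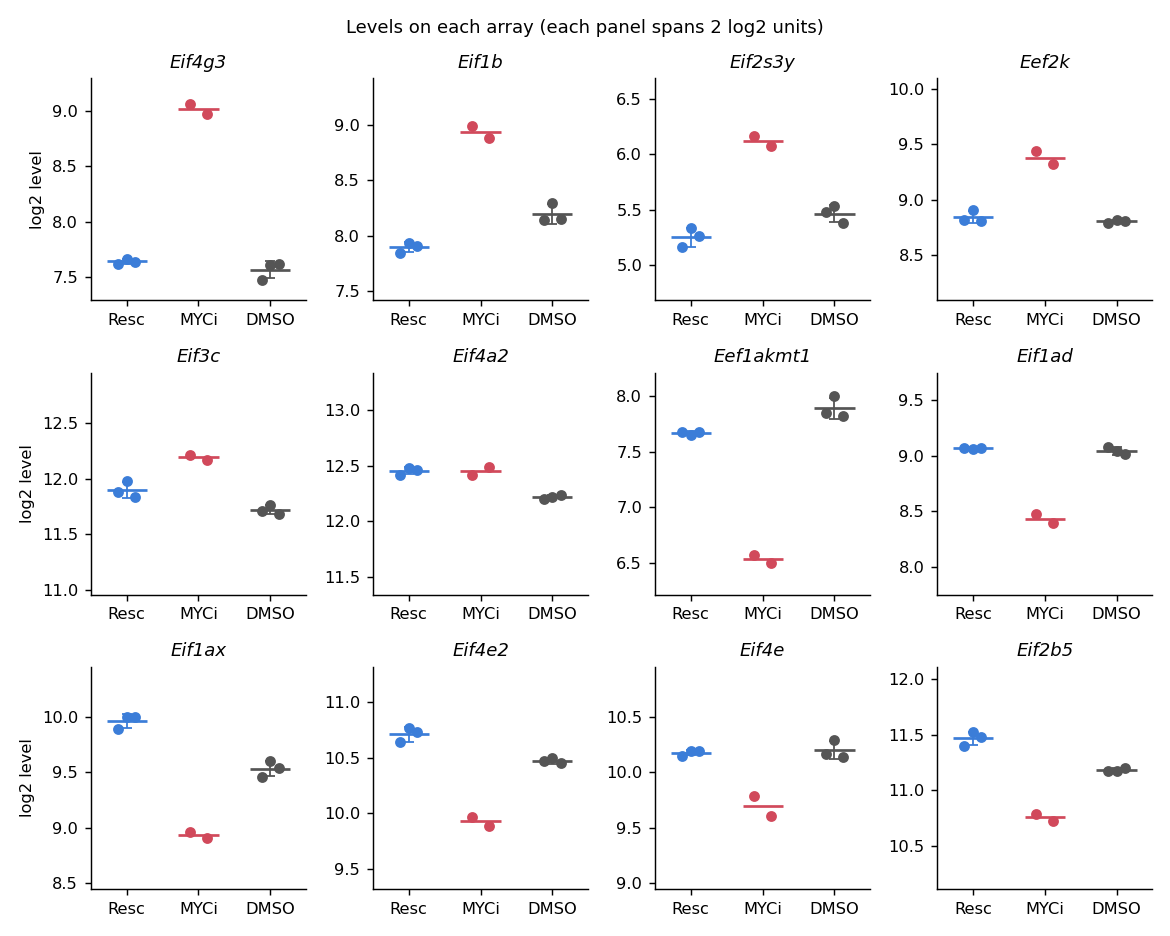
Log2 level on each array for 12 members, with released (Resc), inhibitor-treated (MYCi) and DMSO arrays from left to right; points are arrays, lines are group means, error bars are SD for groups of 3, and every panel spans the same height. Inhibitor-treated arrays are the highest for Eif4g3, at 9.06 and 8.97, and the lowest for Eef1akmt1, at 6.57 and 6.50.

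Among factors that find the start codon, 1 of 4 members rose and 1 fell, against 19.2% and 22.3% of all genes. Eif1b, a paralogue of the start-codon selection gene Eif1, had levels of 7.85, 7.94 and 7.91 in released, 8.99 and 8.88 in inhibitor-treated and 8.14, 8.30 and 8.15 in DMSO cells. The 3 groups did not overlap, with inhibitor-treated arrays the highest and released arrays the lowest. Eif1b rose 1.67-fold with the inhibitor (0.74 ± 0.074, adjusted p = 2.9e-05). After release it was below DMSO (-0.29 ± 0.066, adjusted p = 0.0249), a call that ended without DMSO replicate 2 or any 1 released array (adjusted p from 0.054 to 0.088). Eif1ax, the X-linked gene of eIF1A, stood at 9.89, 10.00 and 10.00 in released, 8.96 and 8.91 in inhibitor-treated and 9.46, 9.60 and 9.54 in DMSO cells. Its groups did not overlap either, and their order was the reverse. Eif1ax fell 1.51-fold with the inhibitor (-0.59 ± 0.069, adjusted p = 7.48e-05) and was 1.35-fold above DMSO after release (0.43 ± 0.061, adjusted p = 0.00243). Of the 5 members called between released and DMSO cells it had the largest difference, and its call alone held without any 1 array, with adjusted p up to 0.0135, although its probe set of the largest variance gave 0.24 with no call. Eif1a, another gene of the same factor, had no call with the inhibitor (-0.08 ± 0.071) or after release (-0.10 ± 0.063). Eif5, which encodes the GTPase-activating factor of eIF2, was not called with the inhibitor on the probe set kept (0.09 ± 0.062, adjusted p = 0.306), while 2 of its 5 probe sets rose by 0.38 and 0.59. It was lower in released than in inhibitor-treated cells (-0.19 ± 0.062, adjusted p = 0.0361), a call that ended without either inhibitor-treated or any 1 released array (adjusted p from 0.0522 to 0.135). Eif1ad, named for its eIF1A-like domain, had levels of 9.07, 9.06 and 9.07 in released, 8.47 and 8.39 in inhibitor-treated and 9.08, 9.04 and 9.01 in DMSO cells. Its inhibitor-treated arrays were the lowest, a fall of 1.53-fold (-0.62 ± 0.060, adjusted p = 2.32e-05), which the other of its 2 probe sets did not show (-0.03 ± 0.066).

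**Figure D4:**
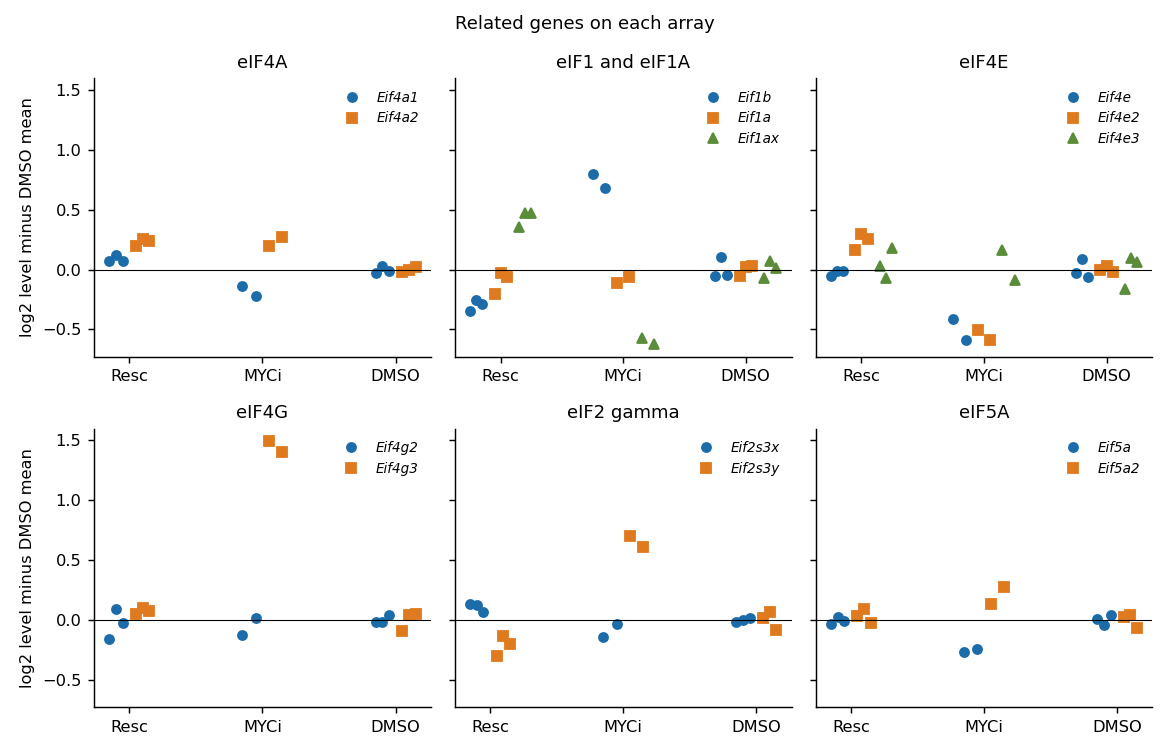
Log2 level of related members on each array minus the mean of the DMSO arrays, with released (Resc), inhibitor-treated (MYCi) and DMSO arrays from left to right and a marker per gene. On inhibitor-treated arrays Eif4a2 and Eif1b lie above the DMSO mean and Eif4a1 and Eif1ax below it, and Eif4g3 has a mean difference of 1.45.

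Of the 5 genes of the exchange factor eIF2B, 4 fell with the inhibitor and 0 rose (22.3% and 19.2% of all genes), with a median of -0.35 (-0.058 for all genes). Eif2b5, the gene of the catalytic subunit, had levels of 11.40, 11.52 and 11.48 in released, 10.79 and 10.72 in inhibitor-treated and 11.17, 11.17 and 11.20 in DMSO cells. The groups did not overlap, with inhibitor-treated arrays the lowest and released arrays the highest. Eif2b5 fell 1.34-fold with the inhibitor (-0.42 ± 0.063, adjusted p = 0.0004) and was 1.22-fold above DMSO after release (0.29 ± 0.056, adjusted p = 0.0131, and 0.0549 without released replicate 2). The regulatory subunit genes Eif2b1 (-0.39 ± 0.065) and Eif2b2 (-0.35 ± 0.070) fell, as did Eif2b4 (-0.29 ± 0.062), and after release they had no call against DMSO, at -0.01 ± 0.058, 0.10 ± 0.062 and 0.08 ± 0.056. Eif2b3 did not pass with the inhibitor (0.03 ± 0.076, adjusted p = 0.769).

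In the eIF2 group 2 of 5 members rose with the inhibitor and 2 fell (19.2% and 22.3% of all genes). Eif2s3y, the Y-linked gene of the eIF2 subunit that binds the initiator tRNA, had levels of 5.16, 5.33 and 5.26 in released, 6.16 and 6.07 in inhibitor-treated and 5.48, 5.53 and 5.38 in DMSO cells. Inhibitor-treated arrays were the highest, 1.57-fold over DMSO (0.65 ± 0.076, adjusted p = 7.85e-05), and released cells were 1.82-fold lower than inhibitor-treated cells (adjusted p = 1.09e-05). The second probe set of Eif2s3y, at a mean level of 2.25, had a change of -0.06 with the inhibitor and no call. Its X-linked homologue Eif2s3x had no call with the inhibitor on the probe set kept (-0.09 ± 0.063, adjusted p = 0.301), while 1 of its 3 probe sets fell to a change of -0.51. After release Eif2s3x was above its inhibitor-treated level (0.20 ± 0.063, adjusted p = 0.0305), a call that ended without inhibitor-treated replicate 1 or released replicate 1 or 2 (adjusted p from 0.0743 to 0.205). Eif2s2, the gene of another eIF2 subunit, stood at 12.89, 12.90 and 12.92 in released, 13.01 and 13.04 in inhibitor-treated and 12.84, 12.85 and 12.87 in DMSO cells. It rose slightly with the inhibitor (0.18 ± 0.057, adjusted p = 0.0327), a call that ended without either inhibitor-treated array, any 1 DMSO array or released replicate 3 (adjusted p from 0.051 to 0.144). When all probe sets were tested together 2 of its 6 were higher and 1 lower, with changes from -0.31 to 1.21. Eif2d, whose product can place tRNAs on the small subunit, fell (-0.40 ± 0.061, adjusted p = 0.000458), with 4 of 6 probe sets lower. Eif2a, the gene of an alternative initiation factor, fell too (-0.23 ± 0.063, adjusted p = 0.0151, and 0.0978 without inhibitor-treated replicate 2). However, 1 of its 3 probe sets rose by 0.25, at a mean level of 2.25 within the range of 2.15 to 2.95 of the 3 TrpnX control probe sets. Eif2s1 was not analysed here.

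Of 11 genes of eIF3 subunits, 6 fell with the inhibitor and 1 rose, against 22.3% and 19.2% of all genes. Eif3l and Eif3k, genes of peripheral subunits, fell most. Eif3l had levels of 11.29, 11.26 and 11.24 in released, 10.77 and 10.67 in inhibitor-treated and 11.18, 11.26 and 11.25 in DMSO cells (-0.51 ± 0.063, adjusted p = 0.000117 with the inhibitor). Eif3k stood at 11.03, 11.02 and 11.11 in released, 10.69 and 10.51 in inhibitor-treated and 11.04, 11.15 and 11.03 in DMSO cells (-0.47 ± 0.076, adjusted p = 0.000652). In both genes the inhibitor-treated arrays lay below all others. Eif3i (-0.36 ± 0.067) and Eif3b (-0.32 ± 0.059), whose products bind each other in the complex, fell as well. Eif3h (-0.25 ± 0.067, adjusted p = 0.0127, and 0.102 without inhibitor-treated replicate 2) and Eif3m (-0.20 ± 0.072, adjusted p = 0.0496) completed the falls, and of the 8 arrays only the absence of DMSO replicate 3 left the call of Eif3m in place (adjusted p otherwise from 0.0585 to 0.277). The core subunit gene Eif3c was the one that rose, with levels of 11.88, 11.98 and 11.83 in released, 12.21 and 12.17 in inhibitor-treated and 11.71, 11.76 and 11.68 in DMSO cells. Inhibitor-treated arrays were the highest and released arrays lay between them and the DMSO arrays without overlap. Eif3c rose 1.38-fold with the inhibitor (0.47 ± 0.068, adjusted p = 0.000323), with all 4 of its probe sets up by 0.47 to 0.67, and after release it had no call against DMSO (0.18 ± 0.060, adjusted p = 0.108). Eif3a (0.05 ± 0.069), Eif3d (-0.02 ± 0.061), Eif3e (0.06 ± 0.060) and Eif3f (0.02 ± 0.082) had no call, although in Eif3a 1 of 4 probe sets rose by 0.24 and 1 fell to a change of -0.35, and in Eif3e 1 of 4, at a mean level of 2.95, fell to -0.22. Between released and DMSO cells, where 8.66% of all genes were called, 0 of the 11 were.

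Of the factors of subunit joining and late steps, Eif6, whose product keeps the large ribosomal subunit from joining too early, had levels of 10.41, 10.40 and 10.42 in released, 10.13 and 10.00 in inhibitor-treated and 10.26, 10.37 and 10.31 in DMSO cells. The inhibitor-treated arrays were the lowest (-0.25 ± 0.066, adjusted p = 0.0126), a call that ended without inhibitor-treated replicate 2 (adjusted p = 0.116), and its second probe set differed by 0.06. Eif5b, the gene of the GTPase of subunit joining, had no call (0.01 ± 0.064). Eif5a, whose product carries the modified amino acid hypusine and helps the ribosome past difficult sequences, stood at 12.84, 12.90 and 12.87 in released, 12.61 and 12.63 in inhibitor-treated and 12.88, 12.83 and 12.92 in DMSO cells. Its inhibitor-treated arrays were the lowest, a fall of 1.2-fold (-0.26 ± 0.060, adjusted p = 0.00659) seen on both of its probe sets. The paralogue Eif5a2 had levels of 6.46, 6.52 and 6.40 in released, 6.56 and 6.70 in inhibitor-treated and 6.45, 6.47 and 6.36 in DMSO cells, a difference of 0.20 ± 0.073 that just missed the threshold (adjusted p = 0.0503).

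Among the elongation factors proper, 1 of 5 members passed the test with the inhibitor, against 41.5% of all genes. Eef1a1, the gene of the main eEF1A, had levels of 13.67, 13.70 and 13.68 in released, 13.73 and 13.72 in inhibitor-treated and 13.64, 13.61 and 13.67 in DMSO cells. The highest value of any probe set was 13.76, so Eef1a1 lay at the top of the scale, and its difference with the inhibitor had no call (0.09 ± 0.058, adjusted p = 0.242). Eef1a2, the paralogue known from muscle and neurons, had levels of 6.43, 6.56 and 6.43 in released, 6.47 and 6.52 in inhibitor-treated and 6.52, 6.47 and 6.49 in DMSO cells (adjusted p = 0.995 for inhibitor-treated against DMSO cells). Eef1b2, an exchange subunit gene, differed by -0.01 ± 0.057 with no call. Eef2 had levels of 11.77, 11.83 and 11.74 in released, 12.02 and 11.98 in inhibitor-treated and 11.88, 11.83 and 11.81 in DMSO cells. Its inhibitor-treated arrays were the highest, but the difference from DMSO did not pass (0.16 ± 0.061, adjusted p = 0.0635). Between released and inhibitor-treated cells it did (-0.22 ± 0.061, adjusted p = 0.0172), until either inhibitor-treated array or released replicate 3 was left out (adjusted p from 0.0543 to 0.0945), and its second probe set, at a mean level of 2.47, had a change of 0.26 with no call. The member that passed with the inhibitor was Eef1d, another exchange subunit gene of eEF1B, at 11.20, 11.16 and 11.17 in released, 10.69 and 10.62 in inhibitor-treated and 11.17, 11.23 and 11.18 in DMSO cells. Its inhibitor-treated arrays lay below all others, a fall of 1.45-fold (-0.53 ± 0.060, adjusted p = 6.26e-05) found on 3 of 4 probe sets, and after release it differed from DMSO by -0.02 ± 0.054. On its other probe sets the difference after release was -0.14 (adjusted p = 0.216), -0.26 (adjusted p = 0.0422) and 0.19 (adjusted p = 0.273). Eef1e1, named as an elongation factor but known as part of the tRNA synthetase complex, had no call with the inhibitor (0.11 ± 0.065, adjusted p = 0.196). It was lower in released than in inhibitor-treated cells (-0.22 ± 0.065, adjusted p = 0.0192), a call that ended without either inhibitor-treated array or released replicate 2 (adjusted p from 0.0575 to 0.0931).

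Of 5 genes of enzymes that modify elongation factors, 1 rose with the inhibitor and 1 fell (19.2% and 22.3% of all genes). Eef1akmt1, a lysine methyltransferase gene whose human product acts on eEF1A, had levels of 7.68, 7.65 and 7.68 in released, 6.57 and 6.50 in inhibitor-treated and 7.85, 8.0 and 7.82 in DMSO cells. The groups did not overlap, and the inhibitor-treated arrays were far below the rest. Eef1akmt1 fell 2.56-fold with the inhibitor (adjusted p = 4.23e-07), on 3 of 4 probe sets. After release it was 2.21-fold higher than with the inhibitor (1.14 ± 0.070, adjusted p = 1.09e-06), and its difference from DMSO did not pass (-0.22 ± 0.063, adjusted p = 0.0652). Eef2k, the gene of the kinase that inhibits eEF2, stood at 8.82, 8.91 and 8.81 in released, 9.44 and 9.32 in inhibitor-treated and 8.79, 8.82 and 8.81 in DMSO cells. Inhibitor-treated arrays were the highest. Eef2k rose 1.49-fold (0.57 ± 0.066, adjusted p = 7.47e-05), on 2 of 3 probe sets, and after release it differed from DMSO by 0.04 ± 0.059. Eef1akmt2 (-0.21 ± 0.081), Eef1aknmt (0.16 ± 0.073) and Eef2kmt (0.13 ± 0.10), genes of further methyltransferases, were not called.

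**Figure D5:**
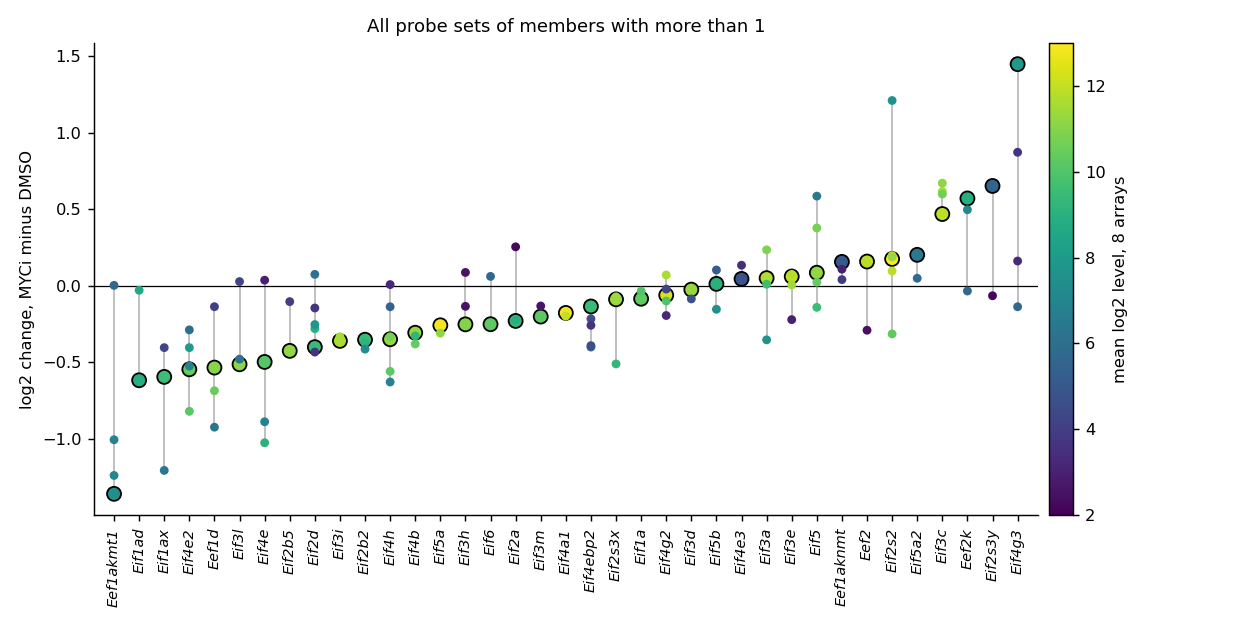
Log2 change with the inhibitor against DMSO of every probe set of the 37 members with more than 1, ordered by the probe set kept (outlined); colour gives the mean log2 level over the 8 arrays. All 4 probe sets of Eif3c lie between 0.47 and 0.67 and all 5 of Eif4e2 between -0.82 and -0.29, while those of Eif2s2 run from -0.31 to 1.21.

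When all 34945 probe sets with 1 gene were tested together, 52 of the 139 probe sets of the members fell with the inhibitor and 17 rose, against 19.9% and 17.5% of all probe sets. Of the 37 members with several probe sets, 19 had all of them on the same side of 0, and Eif2a, Eif2s2 and Eif3a had calls in both directions. In Eif4e the probe set kept gave the smallest of 3 falls, the others having changes of -1.02 and -0.89, and the fourth, at a mean level of 2.95 near the 3 TrpnX control probe sets, had no call. The cause of such differences between probe sets was not tested.

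Other genes of the pathway were read from 7 lists in the same fit. Of their 52 measured genes 8 rose with the inhibitor and 17 fell (15.4% and 32.7%, against 19.2% and 22.3% of all genes). Of 6 genes of eIF2 kinases and phosphatase subunits, 3 rose with the inhibitor and 2 fell. Ppp1r15a, whose product directs the phosphatase to eIF2, rose 2.48-fold (1.31 ± 0.063), the kinase gene Eif2ak3 rose (0.60 ± 0.073) and the kinase gene Eif2ak2 fell (-0.99 ± 0.084). Of 12 genes that control the cap-binding complex, 2 rose and 4 fell. Mknk1, a kinase gene of eIF4E (0.91 ± 0.077), and Pdcd4, the gene of an inhibitor of eIF4A (0.81 ± 0.073), rose, and Paip1, whose product links the poly(A)-binding protein to eIF4A, fell (-0.63 ± 0.062). The 2 genes of enzymes that make the hypusine of eIF5A fell, Dhps 2.09-fold (-1.06 ± 0.076) and Dohh by less (-0.32 ± 0.065). Of 7 genes for the diphthamide of eEF2, Dph3 (-0.89 ± 0.085) and Dph2 (-0.29 ± 0.072) fell and 0 rose.

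Of 9 genes of termination and ribosome recycling, 2 rose and 3 fell, against 19.2% and 22.3% of all genes. Pelo, a ribosome rescue gene (0.53 ± 0.080), and Mcts1 (0.29 ± 0.074) rose, and Denr, whose product pairs with that of Mcts1, fell (-0.24 ± 0.058). Of 9 genes of mitochondrial translation factors 0 rose and 3 fell, namely Tufm (-0.56 ± 0.083), Mtrf1l (-0.54 ± 0.081) and Tsfm (-0.32 ± 0.065). The last list held 8 measured genes, of helicases, initiation factors and others. In it Dap, which is not an initiation factor gene, rose (1.23 ± 0.063), and Abcf1, whose product binds eIF2, fell (-0.59 ± 0.067). Between released and DMSO cells 4 of the 52 genes of these 7 lists were called (7.69%, against 8.66% of all genes). Pelo (-0.50 ± 0.071, adjusted p = 0.00249) and Dap (-0.55 ± 0.057, adjusted p = 0.000396) were below DMSO, as was Dph3 (-0.29 ± 0.076, adjusted p = 0.0484), and Paip2b, named after its value was seen, was above it (0.37 ± 0.065, adjusted p = 0.00709). Myc itself had no call with the inhibitor (-0.17 ± 0.12, adjusted p = 0.316) and was above DMSO after release (0.54 ± 0.11, adjusted p = 0.0148). Its relative Mycl fell 2.05-fold with the inhibitor (-1.04 ± 0.082, adjusted p = 5.94e-06) and had no call against DMSO after release (0.24 ± 0.073, adjusted p = 0.0734). Mycn had no call with the inhibitor (-0.07 ± 0.063, adjusted p = 0.389) or after release (-0.14 ± 0.056, adjusted p = 0.177). Because 10058-F4 works on proteins, the Myc transcript does not check the labels.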

How the data were processed

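Total RNA of 8 samples was labelled with biotin and hybridised to Affymetrix arrays, 1 per sample, and groups were taken from the labels. The authors deposited 1 log2 value for each probe set and array, made with RMA in oligo 1.32.0 and limma 3.2.15, per the submitters' processing notes, and that they are log2 was read from their range of 1.69 to 13.76. Of 45101 probe sets 34945 have 1 gene symbol in the platform annotation. Symbols and promoters were matched to RefSeq by gene, and 10 members without a promoter in the table were left out of the motif search. No filter on level was applied.

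Groups were compared with limma 3.58.1 in R 4.3.3 (lmFit and eBayes, all 8 arrays, 1 mean per group, two-sided), with adjusted p-values by the Benjamini-Hochberg method over 18193 genes. The procedure was also run on simulated data in which far fewer genes changed than were called here, and no result above rests on that run. The members and lists were chosen with earlier results of these data known. Named with values were up to 8 rises and 8 falls per comparison, a set of core factors, members with opposing probe sets and up to 3 genes per list, and the other members are given more briefly. Replicate numbers gave no sign of pairing: deviations from the group means correlated by -0.056 to 0.014 in 7 same-numbered pairs. Deviations within a group cancel out, so these pairs are not independent and cannot show that the arrays were unpaired.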

Additional observations from a re-analysis of the deposited data

How the results depend on the processing

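Counts of members were recomputed under 19 alternatives. With the inhibitor against DMSO, a change of at least 1.5-fold as a further condition left 3 members higher and 3 lower (8.26% and 6.22% of all genes, against 5.66% of members each way), so that the larger share of falls among members was gone, and the other alternatives that left out no array stayed within 1.5 times of 7 and 23. Between released and inhibitor-treated cells that condition left 5 higher and 3 lower (6.37% and 8.18% of all genes), and an adjusted p under 0.01 left 5 lower (15.3%). The counts between released and DMSO cells were the least stable. Higher members numbered 2 with the mean of all probe sets (4.47% of all genes), 7 with a variance trend and robust fitting (7.6%), 1 at an adjusted p under 0.01 (1.93%) and 0 at 1.5-fold (0.77%). Lower members numbered 2 with the probe set of the largest variance (3.84%), 3 without genes under the 30th percentile of level (7.81%), with median centring (4.64%), with repeated quantile normalization (4.29%) and with the variance trend (6.92%), and 0 at either stricter threshold (1.68% and 0.715%). Leaving out each array gave 5 to 7 higher and 18 to 22 lower members with the inhibitor (15.7 to 19.0% and 16.2 to 21.9% of all genes), 1 to 3 higher and 0 to 1 lower for released against DMSO (2.74 to 3.96% and 2.37 to 3.43%), and 19 to 22 higher and 5 to 8 lower for released against inhibitor-treated cells (16.4 to 22.7% and 15.6 to 19.2%). With the replicate number as a block, a pairing that the labels do not state, 6 members were higher and 21 lower with the inhibitor (17.8% and 19.7% of all genes), 2 higher and 0 lower for released against DMSO (3.47% and 3.01%), and 20 higher and 5 lower for released against inhibitor-treated cells (19.7% and 17.8%). Signs turned with the probe set of the largest variance, with the inhibitor for Eif2a (0.25), Eif3a (-0.35) and Eif3e (-0.22), and for released against inhibitor-treated cells for Eif3e (0.24) and Eef2 (0.26, and 0.02 with the mean of probe sets). These settings read other probe sets, and the cause of the difference was not tested. Of the called members 6 of 30, 0 of 5 and 8 of 29 kept their call and direction under all 19 alternatives in the inhibitor, released against DMSO, and released against inhibitor-treated comparisons. The 1.5-fold condition is among the 19 and reads the same estimates, so it ends every call of a smaller change. These numbers therefore do not measure how far the calls depend on the processing. With each array left out in turn, 23 of 30, 1 of 5 and 23 of 29 calls held every time.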
